A study of Arabidopsis thaliana with 32 samples.

Results

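The kai2 mutant of Arabidopsis thaliana is named for the karrikin receptor KARRIKIN INSENSITIVE 2, and the response of its roots to zaxinone was followed over all genes of the deposited kai2 table, with weight on those that the wild-type table does not list. Zaxinone is a small apocarotenoid, a product of carotenoid cleavage. The kai2 table listed 1833 genes out of about 24625 tested, or 7.44%, and 695 of these genes, 2.82% of those tested, were absent from the Col-0 table. Over the whole series 4 such tables together listed 3443 genes.

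Roots of 5-week-old plants grown in hydroponics were harvested 6 h after treatment. In the zaxinone group of kai2, zaxinone was added to the medium at 20 µM from a solution in 1% acetone, and in the mock group of kai2 the medium received 1% acetone alone, with 4 libraries in each group. The mutants d14 and max2 and wild-type Col-0 were treated in the same way, again with 4 zaxinone and 4 mock libraries per genotype. All groups, mock included, therefore carried acetone. The labels name neither the kai2 allele nor whether the 4 libraries of a group came from separate plants, so each p-value reflects how these libraries vary, which may be technical.

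KAI2 is an α/β-hydrolase that perceives karrikins from smoke and is thought to bind an endogenous ligand that has not been identified. It is a paralog of D14, the strigolactone receptor, and both act through the F-box protein MAX2, which marks SMXL repressor proteins for degradation. In Arabidopsis the KAI2 pathway is known for its part in germination, seedling light responses and root hair development.

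A gene is called higher or lower here if the authors' deposited table lists it, which it does only when the authors' adjusted p-value is under 0.05 and the gene's level differs at least by a log2 of 1. Changes are edgeR's log2 fold changes ± SE, zaxinone over mock. The SE is approximate, the absolute log2 fold change divided by the square root of edgeR's F statistic. Levels are normalized counts (counts divided by the authors' factor for each library) unless FPKM is named. In bulk roots, fewer cells of a type and less RNA per cell cannot be told apart. A gene absent from the Col-0 table was not analysed in Col-0 here, so a difference between kai2 and Col-0 was not tested for it. Genes named for the size of their change were taken only where zaxinone and mock libraries did not overlap. For them a lack of overlap is a condition of the choice and no support.

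The kai2 libraries held 42.8 to 68.8 M fragments, of which the listed genes took 6.21 to 9.68%. Zaxinone replicate 1 and mock replicate 1 stood apart from the other libraries of their groups more often than the rest did, and chance alone flags about 1 in 20 groups of values. By Dixon's criterion for 4 values, zaxinone replicate 1 was the outlying library for 83 of the 1833 listed genes and mock replicate 1 for 107, against 5 to 41 for each of the other 6 libraries. Of 14 shoot photosynthesis markers 2 were listed (14.3%, beside 7.44% of all genes tested), both lower. CAB3, a light-harvesting protein, had 0.774, 1.84, 11.2 and 0.890 normalized counts with zaxinone and 94.3, 9.84, 11.9 and 2.45 with mock, and RBCS2B, a small subunit of Rubisco, had 0 in all 4 zaxinone libraries and 23.3, 2.19, 3.96 and 1.22 with mock. Their summed level was 0.0119 to 0.172 FPKM with zaxinone and 0.0623 to 1.94 FPKM with mock, the highest being mock replicate 1, and its part in the results below was not tested. The change in CAB3 was -3.19 ± 1.1 with all libraries (edgeR adjusted p = 0.193) and -1.35 without mock replicate 1. RBCS2B had an edgeR adjusted p of 0.0965, and no fold is given for it, since apart from mock replicate 1 its mock libraries held raw counts of 2, 4 and 1, around the floor of 3 counts per library. Of 10 root markers 1 was listed, PYK10, a β-glucosidase of root ER bodies, at 2925 ± 1265 FPKM with zaxinone and 508 ± 118 FPKM with mock (SD, n = 4 each). The other 9 root markers and 12 shoot markers were not analysed here.

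The gene that names the mutant was itself higher with zaxinone. KAI2, at 6.60 ± 0.840 FPKM with zaxinone and 2.07 ± 0.252 FPKM with mock (SD, n = 4 each), had 572, 527, 428 and 564 normalized counts in the 4 zaxinone libraries, against 188, 163, 139.6 and 163 in the 4 mock libraries. Every zaxinone library lay above every mock library, and the change was 1.68 ± 0.18 (edgeR adjusted p = 6.77e-05). KAI2 was listed in none of the other 3 tables, and its transcript level is no check of the genotype label, since the lesion is not given. Of 18 genes of KAI2, strigolactone and MAX2 signalling, 2 were listed (11.1%), both higher. This share lies near the 7.44% of all genes tested, so nothing is read from it about the list. The second listed gene was CCD7, a carotenoid cleavage dioxygenase of strigolactone synthesis, with 73.5, 56.1, 44.7 and 86.4 normalized counts in zaxinone libraries and 56.9, 7.65, 11.9 and 6.12 in mock libraries. Mock replicate 1 lay within the zaxinone range there, and the edgeR adjusted p was 0.259. Without mock replicate 1 the change in CCD7 was 2.90 (edgeR adjusted p = 4.20e-04). CCD7 was listed in the Col-0 table too.

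Of the 695 genes absent from the Col-0 table, 424 were higher (1.72% of genes tested) and 271 lower (1.1% of genes tested). Most of their changes lay closer to the threshold than those of the 1138 genes that both tables list. The median absolute log2 fold change in the authors' deposited table was 1.28 (quartiles 1.1 and 1.60) for the absent genes, against 1.82 (quartiles 1.38 and 2.52) for the shared ones. An absolute change of at least 2 was reached by 87 of the 695 (12.5%) and by 484 of the 1138 (42.5%). The median FPKM in the higher group was 3.55 for the absent genes and 7.43 for the shared ones. In 629 of the 695 (90.5%) all zaxinone libraries lay on one side of all mock libraries, against 93.7% of all 1833 listed genes, and edgeR called 532 of the 695 (76.5%), against 86% of all listed genes. Of the 695, edgeR called 355 higher and 177 lower, 328 and 149 without zaxinone replicate 1, and 342 and 174 without mock replicate 1. Leaving out zaxinone replicate 2 gave 302 and 135, and the lower calls of the 344 genes listed in kai2 alone numbered 61 there, against 86 with all libraries. Over all 1833 genes edgeR called 905 higher and 672 lower (57.4% higher), while scaling by TMM over the listed genes alone shifted the median change by -0.61 and gave 509 higher and 803 lower (38.8% higher). TMM takes most genes as unchanged, while every gene here was selected as changed and most were higher. The direction of that shift was therefore fixed in advance, and nothing is read from it about the share of rises. No gene named here changed sign under that scaling. These shares of calls and of non-overlap follow in part from the table's own selection on the same libraries. The edgeR adjustment took unlisted genes as unchanged, which can only lower the number of calls. At the threshold, AT5G38010 lay just inside with 1.00 in the authors' deposited table, and genes just outside were not analysed here. By type, 636 of the 695 were protein-coding, 24 were long noncoding RNA genes and 5 were miRNA genes.

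Many of these genes were listed in the other mutants. The d14 table listed 325 of the 695 (46.8%), which was 13.9% of the d14 table, and the max2 table listed 147 (21.2%), which was 9.71% of the max2 table. In d14 alone 204 were found, in max2 alone 26, in both 121 and in neither 344. Of the 325, 1 was listed in the opposite direction in d14, and of the 147, 4 in max2. Of the 344 genes listed in kai2 alone, 191 were higher and 153 lower, and the median size of their change on the log2 scale was 1.21.

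**Figure D1:**
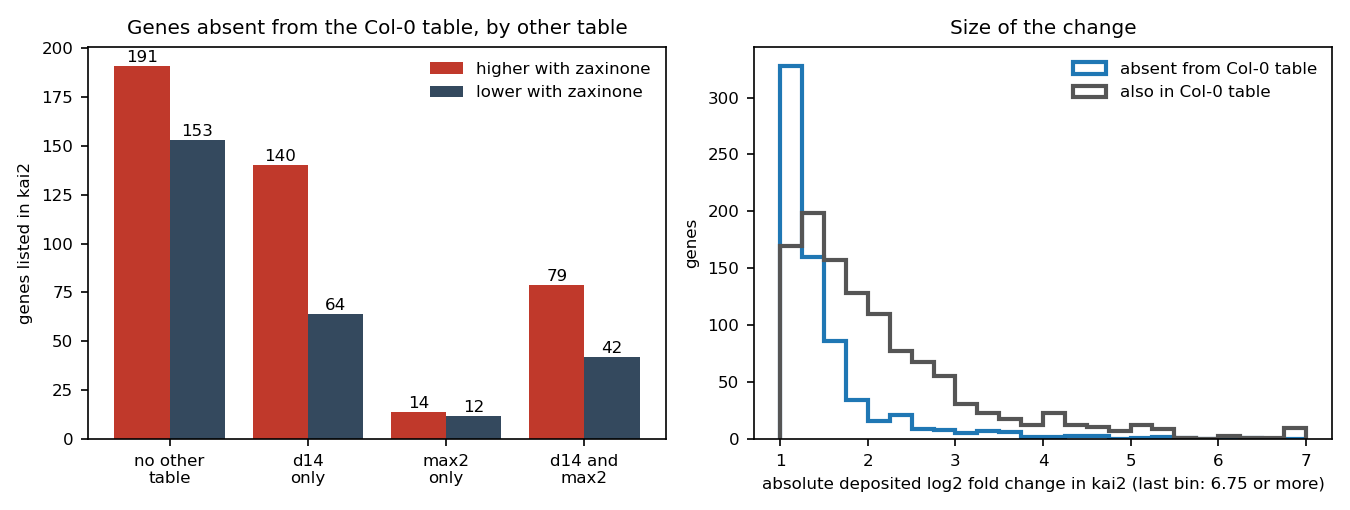
Left, numbers of kai2 genes absent from the Col-0 table, higher or lower with zaxinone, by the other tables that list them; right, the absolute log2 fold change of the authors' deposited table for genes absent from the Col-0 table and for genes in both tables. The group listed in kai2 alone was the largest with 191 higher and 153 lower genes, and the absent genes crowd close to the threshold.

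Genes of the root triterpene clusters rose in kai2, including several that the Col-0 table lacks. Thalianol and marneral are root triterpenes whose synthesis genes sit side by side on chromosome 5. Of 15 cluster genes 8 (53.3%, beside 7.44% of all genes tested) were listed, 7 higher and 1 lower, and 5 of the rises and the fall were absent from the Col-0 table. The median log2 fold change of the 8 in the authors' deposited table was 1.90, beside 1.09 for all listed genes. Among all listed genes 1025 were higher (4.16% of genes tested) and 808 lower (3.28%).

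CYP705A5, a cytochrome P450 that modifies thalianol, had 1399, 932, 926 and 675 normalized counts with zaxinone, against 187, 91.8, 109.9 and 80.8 with mock. The lowest zaxinone library stood well above the highest mock library, and the change was 3.06 ± 0.31 (edgeR adjusted p = 5.04e-05). CYP708A2, the thalianol hydroxylase, had 1447, 1442, 1093 and 937 with zaxinone and 490.1, 237, 263 and 289 with mock, a change of 1.94 ± 0.25 with no overlap. Both genes were also listed higher in d14 and max2, at 2.36 ± 0.64 and 1.76 ± 0.27 for CYP705A5 and at 2.28 ± 0.41 and 1.03 ± 0.26 for CYP708A2. Next to them AT5G47980, described as an acyltransferase, had 277, 390.1, 940.4 and 248 in zaxinone libraries and 175, 139, 138 and 86.9 in mock libraries, without overlap and with zaxinone replicate 3 highest. Its change was 1.78 ± 0.41 with all libraries and 1.18 without zaxinone replicate 3. AT5G47980 lost its edgeR call (adjusted p 0.0504 to 0.0607) without mock replicate 2, 3 or 4, left out singly.

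The fourth neighbour, the thalianol synthase gene THAS1, was listed in every table. In kai2 it had 2987, 3524, 4865 and 2017 normalized counts with zaxinone, against 129.8, 38.3, 73.3 and 55.1 with mock, a change of 5.48 ± 0.41, beside 3.18 ± 0.47 in Col-0. The kai2 effect minus the Col-0 effect was 2.31 ± 0.63 (edgeR adjusted p = 0.129, genotype by treatment term), so the difference did not pass the threshold.

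In the marneral cluster, CYP71A16, which oxidizes marneral, had 829, 579, 566 and 561 with zaxinone and 162, 162, 180.2 and 192 with mock, and CYP705A12, its neighbour, had 1245, 1140.0, 2105 and 917 with zaxinone and 460.2, 507, 579 and 460.4 with mock. The groups of neither gene overlapped, and the changes were 1.87 ± 0.18 and 1.43 ± 0.24. The synthase gene of the cluster, MRN1, which the Col-0 table also lists, had 791, 152, 40.9 and 47.2 with zaxinone and 19.6, 12, 7.92 and 9.80 with mock, a change of 4.37 ± 0.94, or 2.68 without zaxinone replicate 1. BARS1, baruol synthase, went the other way. It had 294, 438, 334 and 341 with zaxinone, against 803, 1556, 1397 and 1576 with mock, a change of -1.92 ± 0.23 (edgeR adjusted p = 1.82e-04) that the d14 table also listed. Reads may be shared among these related genes, since how multiply mapped reads were counted is not given in the sources used here.

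Of 5 further runs of at least 3 neighbouring genes all absent from the Col-0 table, 4 were listed in a common direction. The run from AT5G23820 to AT5G23840 and that from AT5G59470 to AT5G59490, 3 genes each, were higher, with log2 fold changes of 1.06 to 1.24 and 1.19 to 1.39 in the authors' deposited table. AT5G23840 was not called by edgeR (adjusted p = 0.0544), and its change of 1.08 ± 0.29 was 0.62 without zaxinone replicate 3. The 3 genes from AT4G04745 to AT4G04760 were mixed, at 1.46, 1.39 and -1.79 there for AT4G04745, AT4G04750 and AT4G04760. AT4G04750 lost its edgeR call (adjusted p 0.0638 to 0.156) without zaxinone replicate 1, 2 or 4 or mock replicate 1, 2, 3 or 4, left out singly. On chromosome 5 all 6 genes from AT5G37980 to AT5G38030 were higher. AT5G37990, a methyltransferase-family gene, had 4516, 3843, 3737 and 3425 normalized counts with zaxinone and 778, 1595, 1379 and 1696 with mock, and its paralog AT5G38020 had 1193, 1194, 1117 and 1358 with zaxinone and 307, 435, 331 and 495 with mock. AT5G38030, described as a MATE efflux protein, had 1108, 1192, 1549.6 and 1109 with zaxinone and 452, 423, 429.7 and 449 with mock, and none of these 3 genes overlapped between groups. Their neighbours AT5G37980 and AT5G38000, 2 dehydrogenase-family genes, had edgeR adjusted p-values of 0.0914 and 0.271, and AT5G38010, a glycosyltransferase-family gene, had 0.0236. The change in AT5G38000 was 1.07 ± 0.39, or 0.48 without zaxinone replicate 1, and that in AT5G37980 was 1.88 ± 0.56, or 2.56 without mock replicate 2 (edgeR adjusted p = 0.0259). AT5G38010 lost its edgeR call (adjusted p 0.0593 to 0.0896) without zaxinone replicate 2 or 3 or mock replicate 2, 3 or 4, left out singly. On chromosome 4 the 4 genes from AT4G16215 to AT4G16233 were lower, 3 of them described as GDSL-type lipases. AT4G16220 had 82.8, 74.5, 54.6 and 69.4 with zaxinone and 212, 240.5, 219 and 193 with mock, and AT4G16230 had 51.8, 47.8, 65.8 and 84.6 with zaxinone and 167, 198, 193 and 141 with mock, both without overlap. AT4G16215, described as a hypothetical protein, had 1.78 to 5.42 with zaxinone and 5.94 to 18.7 with mock (edgeR adjusted p = 0.108). AT4G16233 changed by -1.62 ± 0.38. AT4G16233 lost its edgeR call (adjusted p 0.0503 to 0.0818) without zaxinone replicate 1 or 2 or mock replicate 2, left out singly. The d14 table also listed AT4G16220, AT4G16230 and AT4G16233 lower, at -2.02, -1.61 and -1.89. It listed AT5G37990, AT5G38020 and AT5G38030 higher, at 1.67, 1.06 and 1.22, and AT5G59470, AT5G59490, AT4G04745 and AT4G04760 in the kai2 direction. The max2 table listed AT4G16230, AT5G37990 and AT4G04745 in that direction. The other genes of these runs were listed in kai2 alone.

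**Figure D2:**
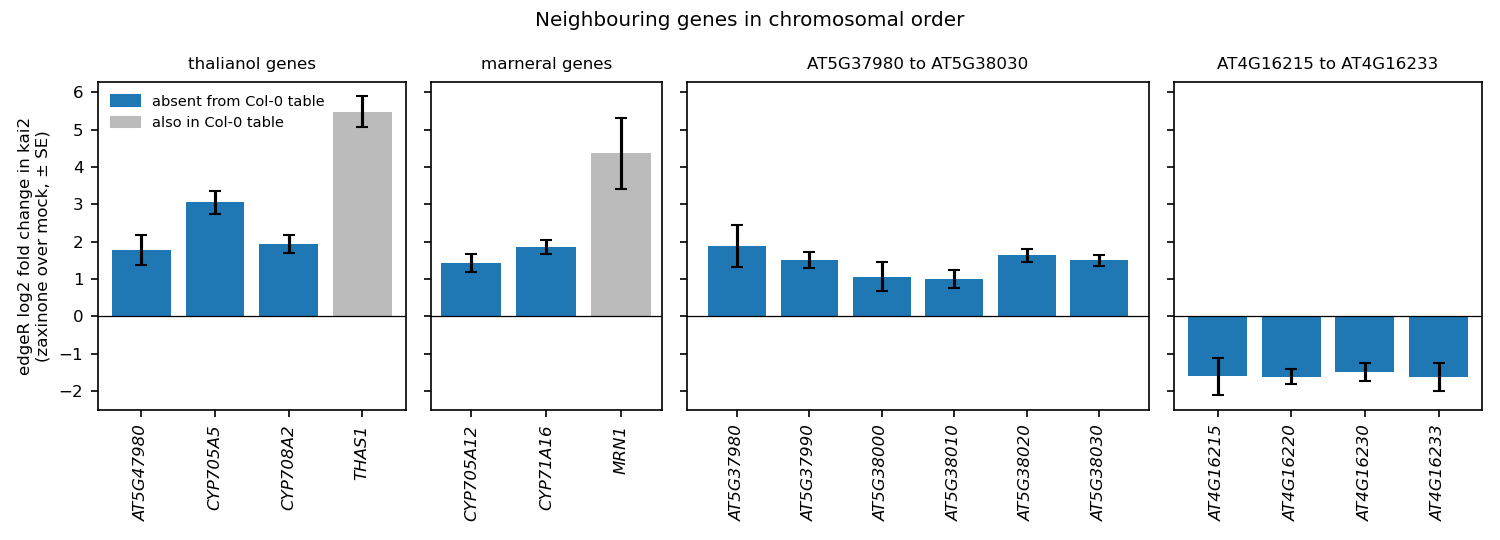
The edgeR log2 fold change of zaxinone over mock in kai2 (± SE, 4 libraries per group) for 4 runs of neighbouring genes in chromosomal order, blue where the gene is absent from the Col-0 table. THAS1 and MRN1, the 2 synthase genes in grey, are the tallest bars of their clusters, and the 4 genes of the last run lie between -1.62 and -1.48.

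Genes of the morning phase of the circadian clock were listed lower in kai2. The clock runs on loops of transcription factors, in which CCA1 and LHY act around dawn and PRR9 follows in the morning, each repressing other clock genes. Of 19 clock genes 5 were listed (26.3%, beside 7.44% of all genes tested), with a median log2 fold change of -1.21 in the authors' deposited table. PRR9, LHY and CCA1 were lower and absent from the Col-0 table. ELF4 and BOA, both evening-phase genes, were higher and listed in both tables. PRR9 had 199, 107, 88.1 and 89.9 normalized counts with zaxinone, against 679, 607, 601 and 789 with mock. Zaxinone replicate 1 was the highest of its group and still under the lowest mock library, and the change was -2.46 ± 0.27 (edgeR adjusted p = 9.51e-05), listed in kai2 alone. LHY, at far lower counts, had 45.6, 37.7, 16.1 and 42.7 with zaxinone and 77.5, 73.2, 89.1 and 115 with mock, a change of -1.3 ± 0.33 without overlap that was also listed in max2 (edgeR adjusted p = 0.0325). LHY lost its edgeR call (adjusted p 0.0649 to 0.102) without zaxinone replicate 2 or 4 or mock replicate 3 or 4, left out singly. CCA1 had 91.3, 35.9, 18.6 and 41.8 with zaxinone and 140.0, 108, 65.4 and 126 with mock. Its groups overlapped and its edgeR adjusted p was 0.217.

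The promoters of PRR9 and LHY are shown because both genes fell and each holds 3 sites with the core ACGTG of abscisic acid response elements, and that of CYP705A5 because this gene had the largest edgeR change among the triterpene genes absent from the Col-0 table. The sequences are the 250 bases before the annotated gene start in the TAIR10.1 assembly from RefSeq, 5′ to 3′ along the gene, at chr2:19232357-19232606 on the plus strand, chr1:37872-38121 on the minus strand and chr5:19434508-19434757 on the plus strand. Capitals mark ACGTG on either strand, and a palindromic CACGTG is counted as 1 site.
PRR9: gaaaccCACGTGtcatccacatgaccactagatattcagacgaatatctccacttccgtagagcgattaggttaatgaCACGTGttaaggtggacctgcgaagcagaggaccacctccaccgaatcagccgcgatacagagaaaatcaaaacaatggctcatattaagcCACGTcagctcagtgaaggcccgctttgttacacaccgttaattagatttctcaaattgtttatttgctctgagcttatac
LHY: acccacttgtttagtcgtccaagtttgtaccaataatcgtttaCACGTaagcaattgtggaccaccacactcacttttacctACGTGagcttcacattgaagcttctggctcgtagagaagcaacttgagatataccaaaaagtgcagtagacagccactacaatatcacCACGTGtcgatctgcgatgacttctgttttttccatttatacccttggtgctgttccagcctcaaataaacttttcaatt
CYP705A5: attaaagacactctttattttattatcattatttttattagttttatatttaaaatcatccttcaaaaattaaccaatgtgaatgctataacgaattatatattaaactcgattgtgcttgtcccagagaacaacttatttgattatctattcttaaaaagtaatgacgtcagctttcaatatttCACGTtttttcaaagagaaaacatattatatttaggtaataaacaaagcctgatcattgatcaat
Sites began 244, 172 and 81 bases before the gene start in PRR9, 207, 168 and 80 bases before it in LHY, and 65 bases before it in CYP705A5.

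Over whole sets, ACGTG on either strand stood in 29.6% of the 250-base promoters of higher genes absent from the Col-0 table (118 of 398 protein-coding genes) and in 23.5% of those of lower ones (56 of 238). It stood in 35.1% of promoters of higher genes and 22.4% of promoters of lower genes that both tables list, beside 22.9% of all 27561 protein-coding promoters. TGACG, the core of as-1 elements found in detoxification genes, was in 20.1% of the higher absent promoters, 28.3% of the higher shared promoters and 18.5% of all promoters. CCGAC, the dehydration response element core, was in 6.72% of the lower absent promoters, against 12% of all. AAAATATCT, the evening element, was in 1.01% of the higher absent promoters, 4.57% of the higher shared promoters and 2.36% of all. GAGAC (sulfur response element core), GAANNTTC (heat shock element core) and TTGAC (W-box core) were in 20.9, 8.54 and 47.7% of the higher absent promoters, beside 25.7, 9.55 and 44.9% of all. These shares were not tested, and a match is only a run of letters.

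BBX28, AT3G12320, SAUR9 and NAP were also lower. BBX28, a B-box protein that represses light-driven development in seedlings and was listed in kai2 alone, had 415, 351, 225 and 256 normalized counts with zaxinone, against 1325, 1247, 903 and 1559 with mock, a change of -2.01 ± 0.24. AT3G12320, described as a hypothetical protein and likewise listed in kai2 alone, had 170.2, 107, 80.6 and 99.7 with zaxinone and 511, 404, 374 and 491 with mock, a change of -1.95 ± 0.25. All 4 zaxinone libraries lay below all 4 mock libraries in both genes, which was a condition for naming them. SAUR9, a small auxin up RNA gene, had 11.6, 17.5, 11.2 and 23.1 with zaxinone and 105, 64.5, 32.7 and 66.1 with mock, also listed in kai2 alone. NAP, a NAC transcription factor known to promote leaf senescence, had 5099, 1503, 1763 and 1118 with zaxinone and 9209, 6750.4, 10108 and 16180.0 with mock. Zaxinone replicate 1 stood apart there, but without overlap, again a condition of the choice. The change was -2.15 ± 0.45 (edgeR adjusted p = 0.00961), or -2.85 without that library. NAP was also listed lower in d14 (-1.88 ± 0.41) and max2 (-1.82 ± 0.24).

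Iron deficiency genes were listed in both directions in kai2, with the regulators FRU and bHLH39 and the coumarin exporter ABCG37 among the rises. Arabidopsis takes up iron by acidifying the soil, releasing coumarins, reducing ferric iron and importing the ferrous ion, under the bHLH factor FRU, known as FIT, and its bHLH partners. Of 29 iron deficiency genes 9 (31%, beside 7.44% of all genes tested) were listed, 7 higher and 2 lower, all absent from the Col-0 table. Their median log2 fold change was 1.13 in the authors' deposited table. Of these 9, edgeR called 5, beside 86% of all listed genes and 76.5% of those absent from the Col-0 table. Other mutant tables listed 6 of the 7 rises as higher too, bHLH39, BHLH101 and OPT3 in d14 and max2, NAS1 and IRT2 in d14 and ABCG37 in max2. FRU was listed in kai2 alone. FRU had 5467, 7290.2, 7821 and 6301 normalized counts with zaxinone, against 3218, 2786, 2826 and 3419 with mock, and its partner bHLH39 had 405, 634, 795 and 647 with zaxinone, against 243, 221, 163 and 278 with mock. In bHLH39 and FRU every zaxinone library was above every mock library, with changes of 1.45 ± 0.24 and 1.13 ± 0.15. ABCG37, a plasma membrane exporter of coumarins, had 33786, 33835, 35217 and 30619 with zaxinone and 14467, 12358, 13109 and 15390.2 with mock, the smallest SE of the 3 (1.27 ± 0.13, edgeR adjusted p = 4.63e-05).

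NAS1, which makes the metal chelator nicotianamine, changed by 1.01 ± 0.25 and OPT3, an oligopeptide transporter that loads iron into the phloem, by 1.31 ± 0.32. NAS1 lost its edgeR call (adjusted p 0.0904 to 0.103) without zaxinone replicate 2, 3 or 4 or mock replicate 2, left out singly. OPT3 lost its edgeR call (adjusted p 0.0601 to 0.110) without zaxinone replicate 2, 3 or 4 or mock replicate 2, 3 or 4, left out singly. The bHLH gene BHLH101 had 37.1, 45.1, 34.7 and 32.9 with zaxinone and 4.67, 19.7, 15.8 and 29.4 with mock, and the transporter gene IRT2 had 51.1, 67.2, 49.6 and 36.5 with zaxinone and 29.9, 25.1, 8.91 and 38.0 with mock, with edgeR adjusted p-values of 0.322 and 0.345. The 2 genes listed lower were FRO2, the ferric chelate reductase, and BHLH100, of the same bHLH group as BHLH101. FRO2 had 109, 453, 161 and 238 with zaxinone and 491, 1209, 296 and 1009 with mock, and BHLH100 had 0.774, 4.60, 4.96 and 2.67 with zaxinone and 10.3, 30.6, 4.95 and 15.9 with mock. Their groups overlapped, and the edgeR adjusted p-values were 0.0896 and 0.0782. DESeq2 called both lower (adjusted p = 0.0120 for FRO2 and 0.0475 for BHLH100). By edgeR, FRO2 was called without zaxinone replicate 2 or mock replicate 3 (0.0226 and 0.0255) and BHLH100 without mock replicate 3 (0.0287).

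Several sulfur limitation genes rose in kai2. Roots short of sulfur raise sulfate reduction and a set of small proteins of the LSU and SDI families. Of 31 genes 8 (25.8%, beside 7.44% of all genes tested) were listed, 7 higher and 1 lower, and 4 of the rises were absent from the Col-0 table, and their median log2 fold change was 1.55 in the authors' deposited table. LSU2, a low-sulfur-induced protein, had 470.3, 245, 355 and 326 normalized counts with zaxinone, against 67.2, 83.1, 93.1 and 157 with mock, and APR2, which reduces activated sulfate to sulfite, had 3193, 2259.8, 3019 and 2422 with zaxinone, against 1106, 898, 1143 and 1283 with mock. Neither overlapped, and the changes were 1.81 ± 0.29 and 1.3 ± 0.17 (edgeR adjusted p = 0.00172 and 3.19e-04). AT1G04770, described as a tetratricopeptide repeat protein, changed by 1.11 ± 0.21. ATSDI1, a sulfur deficiency-induced protein, had 159, 72.7, 57.1 and 67.7 with zaxinone and 39.2, 44.8, 34.7 and 38.0 with mock (edgeR adjusted p = 0.0735). All 4 of these genes were listed in kai2 alone. The 4 sulfur genes shared with Col-0 were LSU1, LSU3 and APR3, listed higher, and the sulfate transporter SULTR1;1, lower. They changed by 3.37 ± 0.71, 1.90 ± 0.61, 2.01 ± 0.19 and -1.58 ± 0.15 in that order. The groups of LSU3 overlapped (edgeR adjusted p = 0.128, and 0.0366 without mock replicate 4), and LSU1 changed by 2.67 without zaxinone replicate 1.

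Type-A response regulators, which cytokinin induces and which damp cytokinin signalling, were higher in kai2. ARR4 had 6426, 6892, 7171 and 6355 normalized counts with zaxinone, against 2957, 1927, 1949.7 and 1532 with mock. RR5 had 3025, 2631, 2942 and 2849.8 with zaxinone and 1282, 941, 898 and 961 with mock, and ARR6 had 842, 798, 845 and 893 with zaxinone and 557, 188, 178 and 268 with mock. Mock replicate 1 was the highest mock library in all 3, and still below every zaxinone library. Their changes were 1.68 ± 0.19, 1.49 ± 0.15 and 1.50 ± 0.32, and the d14 table listed all 3 higher at 1.88 ± 0.20, 1.49 ± 0.17 and 1.73 ± 0.19. Of 19 cytokinin genes 7 were listed (36.8%, beside 7.44% of all genes tested), the other 4 shared with Col-0. Of those, the cytokinin oxidase genes CKX2 and CKX4 were higher, with changes of 3.20 ± 0.44 and 1.49 ± 0.22, and IPT5 and CYP735A2, which act in cytokinin synthesis, were lower, with changes of -1.48 ± 0.18 and -1.40 ± 0.15. The CKX4 effect in kai2 minus that in d14 was -1.04 ± 0.26 (edgeR adjusted p = 0.0365, and 0.0223 to 0.0892 with single kai2 libraries left out, above 0.05 without zaxinone replicate 2, 3 or 4 or mock replicate 2).

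Ammonium transporters rose in kai2. AMT1;1, AMT1;2 and AMT1;3 carry ammonium into root cells. AMT1;1 had 22109, 21076, 21368 and 20430.2 normalized counts with zaxinone, against 8142, 9326, 8799.6 and 9749 with mock, a change of 1.24 ± 0.12 (edgeR adjusted p = 3.43e-05). AMT1;3 had 10964, 13159.7, 16068 and 11434 with zaxinone and 5968, 4892, 6340.1 and 6221 with mock, a change of 1.14 ± 0.16. The zaxinone and mock libraries of these 2 genes did not overlap. AMT1;2 had 1523, 3290.4, 3239 and 2335 with zaxinone and 1631, 691, 805 and 797 with mock, where mock replicate 1 lay above zaxinone replicate 1, a change of 1.40 ± 0.31 (edgeR adjusted p = 0.0145). AMT1;2 lost its edgeR call (adjusted p 0.0508 to 0.0575) without zaxinone replicate 2 or 3 or mock replicate 2, 3 or 4, left out singly. The d14 table also listed AMT1;1, AMT1;2 and AMT1;3 higher, with edgeR changes of 1.35 ± 0.18, 1.74 ± 0.27 and 1.04 ± 0.14 in that order. The nitrate and ammonium list had 5 of 28 genes listed (17.9%, beside 7.44% of all genes tested), 3 higher and 2 lower. All but G6PD3 were absent from the Col-0 table. NRT1.8, a nitrate transporter, was among the lower ones with 56.5, 26.7, 42.2 and 18.7 with zaxinone and 102, 29.5, 66.3 and 162 with mock (edgeR adjusted p = 0.291).

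Cell wall genes were among the largest rises absent from the Col-0 table. PRP1, a proline-rich wall protein, had 342, 513, 316 and 482 normalized counts with zaxinone, against 56.9, 74.3, 83.2 and 129.8 with mock. XTH13 and XTH17 belong to the xyloglucan endotransglucosylases, which cut and rejoin wall polymers. XTH13 had 216, 314, 339.9 and 376 with zaxinone and 80.3, 61.2, 46.5 and 111 with mock, and XTH17 had 772, 2074, 879.6 and 1546 with zaxinone and 520.0, 299, 321 and 283 with mock. AT4G25250, described as a pectin methylesterase inhibitor, had 68.1, 99.4, 95.5 and 168 with zaxinone, against 26.1, 18.6, 22.8 and 14.7 with mock, and AT2G43880, described as a pectin lyase-like protein, had 70.4, 78.2, 140.2 and 169 with zaxinone, against 35.5, 45.9, 25.7 and 15.9 with mock. Mock replicate 1 was the highest mock library for XTH17. The groups of none of these 5 genes overlapped, which was a condition for naming them and held for 90.5% of the 695 absent genes. Their changes were 2.27 ± 0.28, 2.06 ± 0.29, 1.89 ± 0.33, 2.37 ± 0.34 and 1.88 ± 0.39 in that order. The d14 table also listed PRP1 higher, and the max2 table XTH13. Over all descriptions naming pectin or its enzymes, 11 of the absent genes were higher and 2 lower, against 3 higher and 6 lower of those shared with Col-0, a family chosen after its values were seen and not tested. Over all descriptions, 424 of the absent genes were higher and 271 lower, against 601 higher and 537 lower of the shared ones. LRX2, a leucine-rich repeat extensin of root hairs, changed by 1.04 ± 0.22, and with PRP1 it made up the 2 of 18 root hair genes that were listed. This share of 11.1% lies near the 7.44% of all genes tested.

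**Figure D3:**
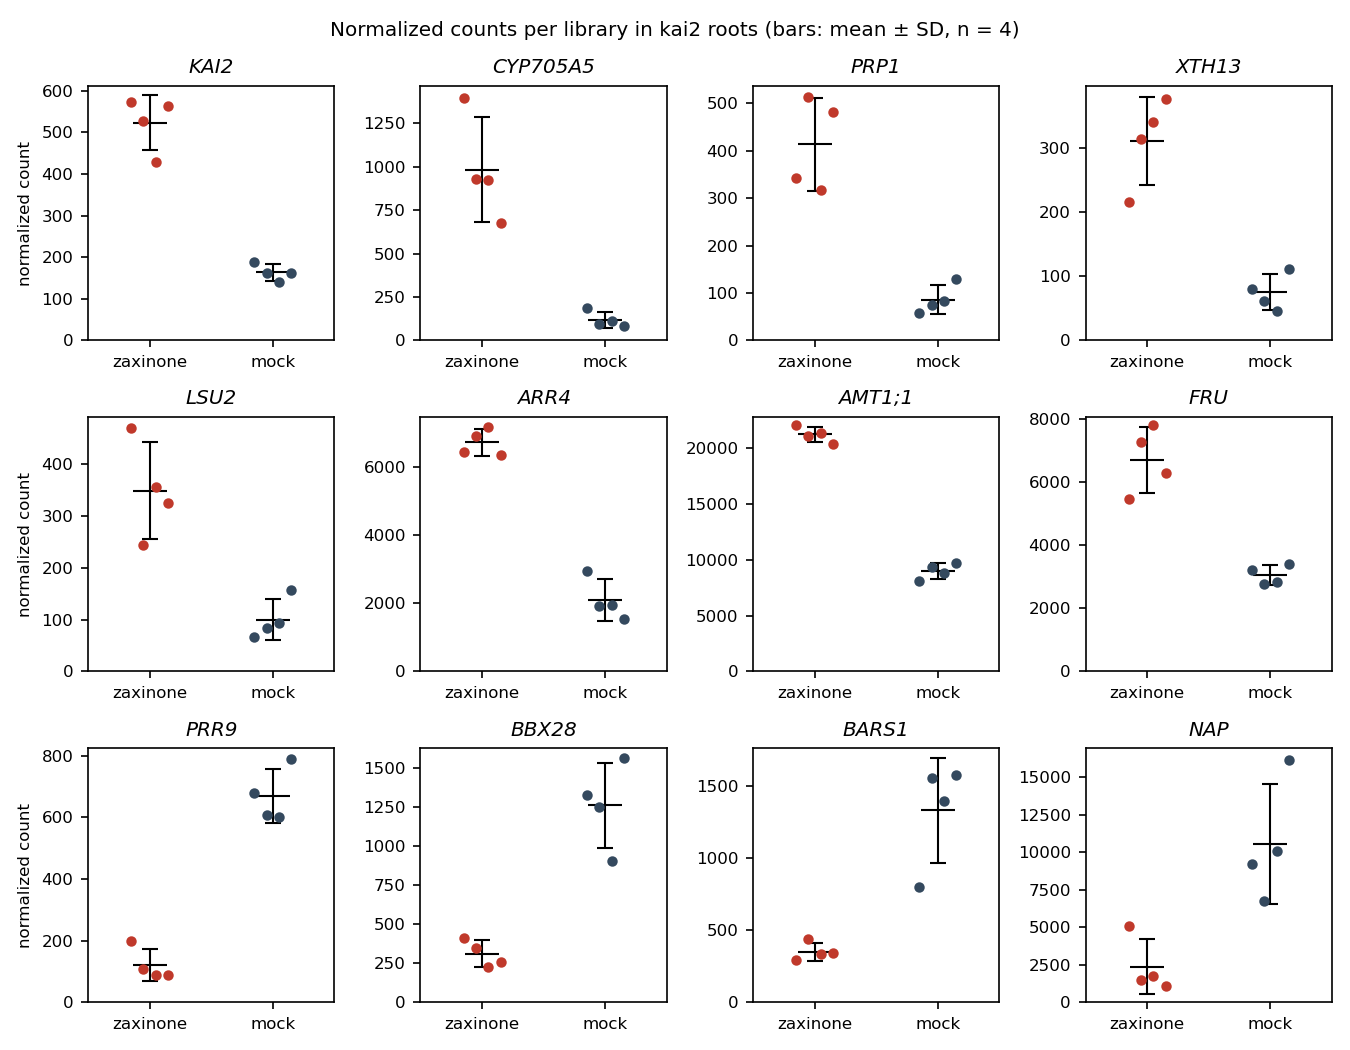
Normalized counts of 12 genes absent from the Col-0 table in each of the 4 zaxinone and 4 mock libraries of kai2 roots, each panel from 0, with bars for the mean ± SD. In all 12 panels the zaxinone and mock points do not overlap, with 8 genes higher and PRR9, BBX28, BARS1 and NAP lower. Genes named for the size of their change were chosen without overlap, and 90.5% of the 695 genes absent from the Col-0 table had none.

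Most of the highest FPKM levels among genes absent from the Col-0 table belonged to genes that rose. AT2G05510, described as a glycine-rich protein, stood at 2087 ± 457 FPKM with zaxinone and 718 ± 220.4 FPKM with mock (mean ± SD, n = 4 each). The major latex protein-like gene MLP328 stood at 1764 ± 857 FPKM with zaxinone and 565 ± 94.4 FPKM with mock, and MLP329 at 1707 ± 408 FPKM with zaxinone and 844 ± 42.9 FPKM with mock. PBP1, a lectin that binds PYK10, and JAL34, a related lectin, stood at 1412 ± 492 and 743 ± 204 FPKM with zaxinone, against 634 ± 89.8 and 359 ± 14.6 FPKM with mock. In normalized counts, PBP1 had 81341, 112835, 168386 and 88782 with zaxinone and 59947, 44109.5, 51154 and 46696 with mock. Zaxinone replicate 3 was the highest library for MLP328, MLP329, PBP1 and JAL34, and the groups of these 4 genes did not overlap. JAL31 and JAL33, related lectins, changed by 1.71 ± 0.24 and 1.12 ± 0.17, and NSP1, which steers glucosinolate breakdown to nitriles, by 1.54 ± 0.21. JAL31, JAL33 and NSP1 were chosen after their values were seen. The d14 table also listed AT2G05510, MLP328, MLP329, JAL31, JAL33 and NSP1 higher. In max2, MLP328, JAL31, JAL33 and NSP1 were listed higher too, while PBP1 and JAL34 were listed in kai2 alone. Of the jacalin or mannose-binding lectins by description, 3 absent genes were higher and 1 lower, and 1 shared gene was higher and 2 lower. Among all absent genes 424 were higher and 271 lower, against 601 higher and 537 lower of all shared ones. The lectin family was chosen after its values were seen and not tested. Near-identical members of these families may share reads. Among the 5 highest mock levels, AT5G61590, described as an Integrase-type DNA-binding protein, was the 1 gene that fell, with 198 ± 44.6 FPKM, against 414 ± 17.9 FPKM with mock.

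Cytochrome P450 genes were among the remaining large rises. CYP76G1 had 129, 89.3, 83.1 and 154 normalized counts with zaxinone, against 18.7, 12, 14.9 and 41.6 with mock, and CYP712A2 had 177, 79.1, 117 and 151 with zaxinone, against 32.7, 30.6, 20.8 and 49.0 with mock. Of all cytochrome P450 genes by description, 18 of the absent ones were higher and 2 lower, against 17 higher and 10 lower of those shared with Col-0, a family chosen after its values were seen and not tested. Among all absent genes 424 were higher and 271 lower, against 601 higher and 537 lower of all shared ones. AT3G45680, described as a major facilitator protein, changed by 1.96 ± 0.26, AT2G16005, of the MD-2-related lipid recognition type, by 1.93 ± 0.29 and AT3G55790, described as a transmembrane protein, by 1.91 ± 0.30. In d14, AT3G45680, CYP76G1 and CYP712A2 were listed higher too, as were AT2G16005 at 2.97 ± 0.48 and AT3G55790 at 3.31 ± 0.48. The max2 table listed CYP712A2 and AT2G16005 higher. AT1G66800, described as a Rossmann-fold protein, had 608, 503, 1655 and 442 with zaxinone and 235, 153, 184 and 143 with mock, zaxinone replicate 3 standing apart. Its change was 2.16 ± 0.40, or 1.53 without that library. AT5G38700, described as a cotton fiber protein, changed by 2.09 ± 0.48, or 2.99 without mock replicate 1. AT5G38700 lost its edgeR call (adjusted p 0.0539 to 0.0591) without zaxinone replicate 2, 3 or 4 or mock replicate 2 or 4, left out singly. SDR4, described as a Rossmann-fold protein, was listed in kai2 alone with 2186, 2154, 3918 and 1603 normalized counts with zaxinone, against 1041, 586, 602 and 841 with mock.

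Several of the remaining large falls were at low counts. AT3G46390, described as a NAC domain protein, had 0, 0.920, 3.72 and 1.78 with zaxinone and 8.40, 10.9, 6.93 and 18.4 with mock, a change of -2.84 ± 0.69, or -3.50 without zaxinone replicate 3. AT3G46390 lost its edgeR call (adjusted p 0.0567 to 0.0974) without zaxinone replicate 1, 2 or 4 or mock replicate 2 or 4, left out singly. AT5G43066, described as a transmembrane protein, had 3.09, 3.68, 0 and 0 with zaxinone and 17.7, 13.1, 3.96 and 13.5 with mock (edgeR adjusted p = 0.0707). AT5G28671, described as a hypothetical protein, changed by -2.11 ± 0.44, AT1G78460, of the SOUL heme-binding type, by -1.77 ± 0.37 and AT4G03470, an ankyrin repeat gene, by -1.71 ± 0.23. The precursor of MIR160a, a miRNA that targets auxin response factors, had 5.42, 2.76, 3.72 and 2.67 with zaxinone and 6.53, 15.3, 10.9 and 19.6 with mock (edgeR adjusted p = 0.0523). In sugar transport the monosaccharide carrier STP4 had 14362, 11394, 10765 and 10171 with zaxinone, against 22665, 26556, 23533 and 29295 with mock, a change of -1.13 ± 0.15 listed in kai2 alone.

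Abscisic acid response, detoxification and suberin genes rose in kai2, and nearly all of them were listed in Col-0 too. Of 34 abscisic acid response genes 24 (70.6%, beside 7.44% of all genes tested) were listed, 21 higher and 3 lower. HAB1 and ABF2 were the 2 absent from the Col-0 table. HAB1, a phosphatase that restrains abscisic acid signalling, had 6913, 4165, 3986 and 3919.9 normalized counts with zaxinone, against 2203, 2295, 2259 and 2589 with mock. ABF2, a bZIP factor that binds abscisic acid response elements, had 1529, 1343, 1564 and 1449 with zaxinone and 695, 533, 680.2 and 577 with mock. Zaxinone replicate 1 was the highest library for HAB1, and the groups of neither gene overlapped. Of 37 detoxification genes 23 were listed (62.2%), all higher, and GSTF8, a glutathione transferase, was the 1 absent from the Col-0 table, with a change of 1.11 ± 0.14. Of 28 endodermis and suberin genes 14 were listed (50%), all higher. FAR4, which makes the fatty alcohols of suberin, at 1.04 ± 0.19 and LACS2, which activates long-chain fatty acids, at 1.23 ± 0.24 were the 2 absent ones.

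Other lists held 1 or 2 listed genes absent from the Col-0 table. CYP79B2, which starts indole glucosinolate synthesis from tryptophan, had 3440.1, 2999.6, 2912 and 3401 with zaxinone, against 1585, 1021, 1076 and 1389 with mock, and was listed in kai2 alone. HSFA1E, a heat shock factor, changed by 1.13 ± 0.14, the phosphate transporter PHT1;4 by 1.12 ± 0.17, the aquaporin PIP1;4 by 1.07 ± 0.16 and LUT2, the ε-cyclase that opens lutein synthesis, by 1.35 ± 0.29. LUT2 lost its edgeR call (adjusted p = 0.0508) without zaxinone replicate 4. TT4, chalcone synthase, had only 34.0, 8.28, 17.4 and 11.6 with zaxinone and 3.73, 5.47, 2.97 and 1.22 with mock, and LDOX, a later enzyme of anthocyanin synthesis, had 1.55, 6.44, 21.1 and 9.79 with zaxinone and 0.934, 0, 2.97 and 1.22 with mock (edgeR adjusted p = 0.147). LDOX changed by 2.71 ± 0.88, or 3.48 without mock replicate 3 and 2.06 without zaxinone replicate 3. TT4 lost its edgeR call (adjusted p 0.0606 to 0.0919) without zaxinone replicate 1 or 3 or mock replicate 1, 3 or 4, left out singly. By list, 2 of 15 carotenoid, 2 of 23 heat shock, 2 of 23 phosphate, 2 of 25 auxin and 2 of 21 jasmonate genes were listed, all higher. These shares of 8.00 to 13.3% lie near the 7.44% of all genes tested, so nothing is read from them about the lists. The glucosinolate list had 4 of 28 genes higher and 1 lower (17.9% listed). The phenylpropanoid list had 4 of 25 higher and 2 lower (24%), and the salicylic acid list 4 of 20 higher and 2 lower (30%). Of 22 aquaporins 1 was higher and 1 lower (9.09%), and 2 of 19 sugar genes were lower (10.5%), shares again near 7.44%. The 4 listed of 13 low oxygen genes (30.8%) and the 1 listed of 12 ethylene genes (8.33%) were lower. Listed higher were 4 of 13 abscisic acid metabolism (30.8%), 2 of 8 osmoprotectant (25%) and 3 of 12 early touch genes (25%). The ethylene, low oxygen, abscisic acid metabolism, osmoprotectant and early touch lists held no listed gene absent from the Col-0 table. The gibberellin, endoplasmic reticulum folding and cell cycle lists held no listed gene at all, of 14, 8 and 14 genes.

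**Figure D4:**
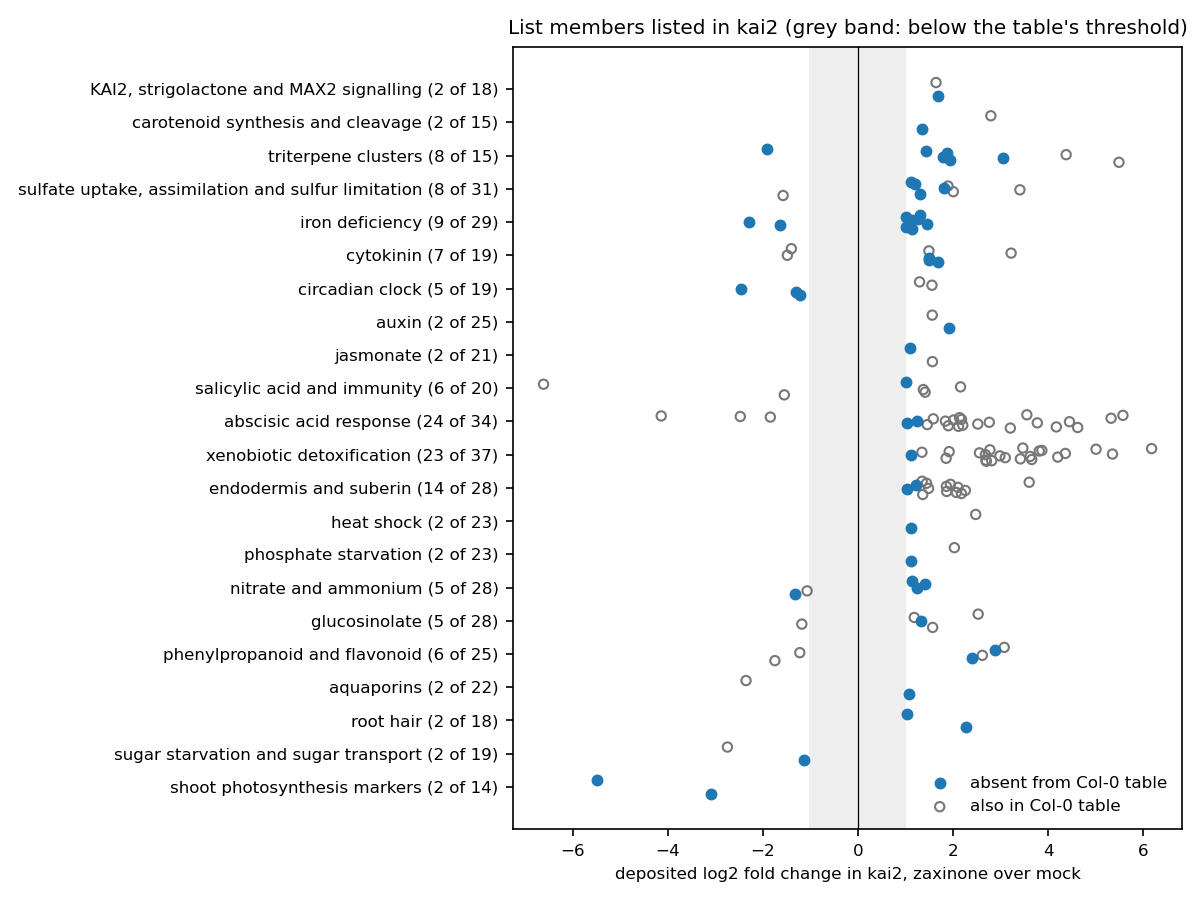
The log2 fold change in kai2 from the authors' deposited table for every listed member of the gene lists with at least 1 gene absent from the Col-0 table, filled where absent and open where shared, with the number listed of all members beside each name. All 9 listed iron genes are filled, while 22 of 24 abscisic acid response genes and 22 of 23 detoxification genes are open.

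Where a gene was listed in both genotypes, the effect itself could be compared. Over the 1138 genes of the kai2 and Col-0 tables, edgeR's genotype by treatment term passed an adjusted p of 0.05 for 0 genes (0%), while 98 (8.61%) had an unadjusted p under 0.05 and DESeq2 called 18, with 12 above 0 for kai2 minus Col-0. These fits cover genes listed in both tables, and p-values were adjusted over those genes. The median difference, kai2 minus Col-0, was 0.06 on the log2 scale. The 3 smallest p-values, chosen after they were seen, belonged to CHX17, UGT72E2 and AT5G66780. CHX17, a cation/proton exchanger, changed by 3.79 ± 0.15 in kai2, beside 2.51 ± 0.22 in Col-0, and UGT72E2, a glucosyltransferase of monolignols, by 3.29 ± 0.15, beside 2.01 ± 0.22 in Col-0. AT5G66780, described as a late embryogenesis abundant protein, changed by 3.88 ± 0.46 in kai2, beside 6.70 ± 0.39 in Col-0. The differences were 1.28 ± 0.25, 1.28 ± 0.27 and -2.81 ± 0.62, with edgeR adjusted p-values of 0.0647, 0.0647 and 0.0666.

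Against d14, 35 of 1324 shared genes (2.64%) differed in effect, 3 above 0 and 32 below 0 for kai2 minus d14. DESeq2 called 85, a fit with the replicate number as a block 10 and the edgeR fit without kai2 zaxinone replicate 4 called 2. The 3 above 0 were AT5G50550, MAM1 and G6PD3, and those below 0 named here are list members or genes of opposite direction. MAM1, an enzyme of aliphatic glucosinolate synthesis, changed by -1.18 ± 0.16 in kai2 and -2.16 ± 0.17 in d14, and G6PD3, a glucose-6-phosphate dehydrogenase, by -1.07 ± 0.16 in kai2 and -1.91 ± 0.14 in d14. Among the 32, the camalexin P450 genes CYP71A13 and CYP71A12 rose less. CYP71A13 changed by 2.15 ± 0.47 in kai2 and 6.29 ± 0.55 in d14, and CYP71A12 by 1.38 ± 0.28 in kai2 and 2.92 ± 0.20 in d14. In the d14 mock libraries CYP71A13 had 0 to 1.61 normalized counts, around the floor of 3 counts per library. Its change in d14 and its difference from d14 therefore rest on values near that floor. PAD3, a further camalexin gene, changed by 1.41 in kai2 and 1.27 in d14 in the authors' deposited tables. The differences for MAM1 and CYP71A13 were 0.98 ± 0.22 and -4.13 ± 0.83 (edgeR adjusted p = 0.0225 and 0.0208). Without kai2 zaxinone replicate 4 these adjusted p-values were 0.0552 for MAM1 and 0.0524 for CYP71A13. The G6PD3 difference had adjusted p-values of 0.0221 to 0.0790 with single kai2 libraries left out, above 0.05 without zaxinone replicate 2 or 4 or mock replicate 4. The CYP71A12 difference was -1.54 ± 0.36, above 0.05 without zaxinone replicate 3 or 4 (adjusted p up to 0.0607). Within kai2, CYP71A13 lost its edgeR call (adjusted p = 0.0520) without zaxinone replicate 2. Beside the 2 calls without zaxinone replicate 4, leaving out zaxinone replicate 1 gave 47 calls and zaxinone replicate 3 gave 24.

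Against max2, 27 of 1009 shared genes (2.68%) differed, 12 above 0 and 15 below 0 for kai2 minus max2, while DESeq2 called 54 and the block fit 13. Leaving out single kai2 libraries gave 14 to 16 without zaxinone replicate 2, 3 or 4 or mock replicate 2 or 3. NCED3, the rate-limiting enzyme of abscisic acid synthesis, changed by 4.41 ± 0.34 in kai2 and 2.02 ± 0.22 in max2, a difference of 2.40 ± 0.39 (edgeR adjusted p = 0.00354). The phosphatase genes HAI3 and PP2CA, induced by abscisic acid, also changed more, with differences of 3.17 ± 0.60 and 0.80 ± 0.20. NCED3 and HAI3 kept adjusted p-values under 0.05 with each kai2 library left out, at most 0.0115 and 0.0156. For PP2CA it was 0.0402 to 0.0932, above 0.05 without zaxinone replicate 1, 3 or 4 or mock replicate 2, 3 or 4. NCED3, HAI3 and PP2CA were named as members of the abscisic acid lists. Other members went the other way in the authors' deposited tables. NCED2, CYP707A2 and ABF3 changed by 2.19, 1.78 and 2.01 in kai2, against 3.39, 3.15 and 2.68 in max2. Nothing is therefore read from NCED3, HAI3 and PP2CA about the lists as a whole.

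Genes listed in opposite directions were few. There were 2 between kai2 and Col-0, 3 between kai2 and d14 and 7 between kai2 and max2. Each was chosen by opposite listing on these same libraries, so a large difference was set in advance. The p-value of such a difference is therefore no separate support. The genes against Col-0 were AT3G45080 and AT5G66815, with edgeR adjusted p-values of 0.107 and 0.121 for the difference. AT5G50550, described as a WD40 repeat protein, had 84.0 ± 34.1 normalized counts with zaxinone and 34.8 ± 16.4 with mock in kai2, against 17.9 ± 6.40 and 77.4 ± 68.7 in d14 (mean ± SD, n = 4 each). Its difference was 3.38 ± 0.83 against d14 and 3.50 ± 0.80 against max2 (edgeR adjusted p = 0.0339 and 0.0243). With single kai2 libraries left out, these p-values were 0.0281 to 0.0671 against d14, above 0.05 without zaxinone replicate 2, 3 or 4 or mock replicate 1, 2 or 3. Against max2 they were 0.0167 to 0.0605, above 0.05 without zaxinone replicate 2 or 3 or mock replicate 2 or 3. Within kai2 its groups overlapped (edgeR adjusted p = 0.0987). AT3G55513, described as a hypothetical protein, was lower in kai2 and higher in d14, a difference of -2.80 ± 0.58 (edgeR adjusted p = 0.0214, and 0.0524 without zaxinone replicate 4). WAK1, a wall-associated kinase and the 1 absent gene of opposite direction in d14, had a difference of 3.10 ± 0.82 (edgeR adjusted p = 0.0512). Its change in kai2 was 1.53 ± 0.55 with overlapping groups, or 0.89 without zaxinone replicate 3.

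The 4 other largest opposite pairs against max2 were AT2G44070, AT4G28811, PHE1 and AT4G27450. The remaining 2 of the 7, AT1G14550 and AT1G67270, both absent from the Col-0 table, were lower in kai2 and higher in max2. Their differences were -2.44 ± 0.49 and -2.77 ± 0.60 (edgeR adjusted p = 0.00814 and 0.0169). As for the other opposite pairs, the choice itself set a large difference. Like those pairs, AT1G14550 and AT1G67270 were named for their opposite listing. Within kai2, AT1G67270 was not called by edgeR (adjusted p = 0.0555). AT1G14550 lost its edgeR call (adjusted p 0.0783 to 0.166) without zaxinone replicate 1, 2, 3 or 4 or mock replicate 1, 2 or 3, left out singly. PHE1, a MADS-box gene, had 11.6, 8.28, 0 and 3.56 normalized counts with zaxinone and 17.7, 49.2, 29.7 and 36.7 with mock in kai2, and was listed higher in max2, a difference of -4.25 ± 0.84 (edgeR adjusted p = 0.00814). PHE1 lost its edgeR call (adjusted p 0.0586 to 0.133) without zaxinone replicate 2 or 4 or mock replicate 2, 3 or 4, left out singly. AT4G27450, described as an aluminum-induced protein, had 14628, 9679.8, 8986 and 7283 with zaxinone and 62309, 22031, 16083 and 24544 with mock, mock replicate 1 highest, and differed by -2.77 ± 0.49 from max2. AT4G27450 lost its edgeR call (adjusted p 0.0790 to 0.0942) without zaxinone replicate 2, 3 or 4, left out singly. AT2G44070 had 1.55 to 6.20 with zaxinone and 0 to 83.1 with mock, its highest value again in mock replicate 1. Its groups overlapped, and its change was -2.91 ± 1.12, or -0.82 without that library. Its difference from max2 was -5.96 ± 1.37 (edgeR adjusted p = 0.0243), above 0.05 without zaxinone replicate 2 or 4 or mock replicate 1 (up to 0.0723). AT4G28811, a bHLH-type gene, had 13.6 to 20.5 with zaxinone and 19.6 to 444 with mock, a change of -3.10 ± 0.84, or -1.51 without mock replicate 1. Its groups overlapped, and within kai2 edgeR did not call AT4G28811 with all libraries, while DESeq2 did. The differences of PHE1, AT4G27450 and AT4G28811 from max2 had adjusted p-values of at most 0.0250, 0.0127 and 0.0401 with each kai2 library left out.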

How the data were processed

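Poly(A) RNA of 8 kai2 root libraries was sequenced in read pairs, and the labels do not say whether these libraries kept strand. The submitters' processing notes name HISAT2 and StringTie, while the counting tool, genome build and test have no source here. The deposited tables hold, per the file headers, counts, FPKM, a log2 fold change and p-values for each gene, plus counts divided by 1 factor per library by the authors, a normalized signal without unit. The authors deposited only genes whose adjusted p-value is under 0.05 and whose log2 fold change is at least 1 in size, so other genes were not analysed here. From the deposited p-values about 24625 genes had been tested in kai2.

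Counts were refitted with edgeR 4.0.16 (quasi-likelihood test, the authors' factors as library scale, Benjamini-Hochberg adjustment over the 24625 tests). Genes not listed have no p-value here and entered that adjustment as unchanged. The deposited p-values imply about 6429 genes up to the largest listed p-value, more than the 1833 listed. Adjusted p-values of the kai2 fits can therefore only be as high as or higher than a full adjustment would give. Since genes were selected on these libraries, edgeR describes the listed genes, and a p slightly above 0.05 is no evidence of an unchanged gene. DESeq2 1.42.0, limma-voom (limma 3.58.1), TMM, library totals, a replicate block, stricter thresholds and leaving out each library were alternatives. The fits were tested on simulated data. Chi-square per degree of freedom between replicates was 16.8 to 256, so no 2 libraries agreed within sampling noise, and floors cover counting error only.

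Gene lengths implied by counts and FPKM equalled exon lengths of TAIR10.1 from RefSeq for all 1833 genes (largest relative deviation 7.23e-07), and promoters were taken from that assembly. Symbols come from RefSeq. How multiply mapped reads and overlapping genes were counted is not given in the sources used here. The members and the 31 gene lists were chosen with earlier results of these data known. Genes named are KAI2; the largest changes absent from the Col-0 table with FPKM of at least 1 and no overlap; listed members of the lists; genes of opposite direction between tables; the 5 most abundant absent genes per group; and runs of neighbours. Others are marked as chosen after their values were seen.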

Additional observations from a re-analysis of the deposited data

Results flagged for a closer look

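In single genes 1 library lay far from the other 3 of its group, which chance alone gives in about 1 of 20 groups. Mock replicate 1 was the high library for 10 named genes. It had 94.3 normalized counts of CAB3, 23.3 of RBCS2B, 56.9 of CCD7, 83.1 of AT2G44070, 44.8 of AT5G38700, 520.0 of XTH17, 784 of OPT3, 1631 of AMT1;2, 1282 of RR5 and 2281 of AT4G04745. The other 3 mock libraries reached at most 11.9, 3.96, 11.9, 13.5, 13.5, 321, 326, 805, 961 and 1084 in the same order of genes. Zaxinone replicate 1 was the high library for PRR9 with 199, NAP with 5099, HAB1 with 6913, CYP71A16 with 829, MRN1 with 791, ATSDI1 with 159 and AT5G38000 with 196. The other 3 zaxinone libraries reached at most 107, 1763, 4165, 579, 152, 72.7 and 73.9 in that order. It was the low library for NAS1 with 636, against 847 to 880.5 in the others, and for AT5G59470 with 343, against 439 to 453. Zaxinone replicate 3 stood above the others for CAB3 with 11.2, AT1G66800 with 1655, MLP328 with 144464, AT5G23820 with 4959 and AT5G23840 with 2698, where the others reached 1.84, 608, 70666, 3170 and 1204 in that order. For PIP1;4 zaxinone replicate 4 had 7298, and the other 3 had 6346 to 6506.

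Zaxinone effects that differed between kai2 and another genotype by edgeR's interaction term were the second kind. Of 35 such genes against d14 and 27 against max2, those named in the report are given. For kai2 minus d14 they were 3.38 ± 0.83 for AT5G50550, 0.98 ± 0.22 for MAM1, 0.84 ± 0.20 for G6PD3, -4.13 ± 0.83 for CYP71A13, -2.80 ± 0.58 for AT3G55513, -1.54 ± 0.36 for CYP71A12 and -1.04 ± 0.26 for CKX4. For kai2 minus max2 they were 3.50 ± 0.80 for AT5G50550, 3.17 ± 0.60 for HAI3, 2.40 ± 0.39 for NCED3, 1.64 ± 0.43 for CHX17, 0.82 ± 0.21 for UGT72E2 and 0.80 ± 0.20 for PP2CA on the positive side. On the negative side they were -5.96 ± 1.37 for AT2G44070, -5.51 ± 1.17 for AT4G28811, -4.25 ± 0.84 for PHE1, -2.77 ± 0.49 for AT4G27450, -2.77 ± 0.60 for AT1G67270 and -2.44 ± 0.49 for AT1G14550. The edgeR adjusted p-values of these 19 ranged over 0.00354 to 0.0457. For the genes chosen by opposite listing on these same libraries, they are no separate support. The CYP71A13 difference rests on d14 mock libraries with 0 to 1.61 normalized counts, near the floor. CHX17 lost its call against max2 without any 1 of the 8 kai2 libraries (0.0537 to 0.0932), and UGT72E2 without any but mock replicate 1 (0.0176 to 0.0992).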

How the results depend on the processing

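No gene named changed sign under any of the 13 settings. Raising the deposited fold threshold to a log2 of 2 left 310 higher and 261 lower genes, 34 and 53 of those absent from the Col-0 table and 16 and 32 of those listed in kai2 alone. With TMM over the listed genes, edgeR called 509 genes higher, 99 of those absent from the Col-0 table and 29 of those in kai2 alone. The selection of the listed genes fixed the direction of the TMM shift, so these counts are no measure of dependence on scaling. The lower genes absent from the Col-0 table numbered 153 at FPKM of at least 1, 177 with edgeR and 177 with library totals, and 135 to 174 with 1 library left out. The lower genes in kai2 alone numbered 93 at an adjusted p under 0.01, 88 at FPKM of at least 1, 86 with edgeR, 101 with DESeq2, 101 with limma-voom and 86 with library totals, and 61 to 84 with 1 library left out. The higher genes in kai2 alone numbered 124 to 143 with 1 library left out. Effects differing from Col-0 numbered 18 with DESeq2 and 0 to 2 with 1 library left out, from d14 85 and 2 to 47, and from max2 54 and 14 to 28. Of 130 named genes, 32 lost and 11 gained an edgeR call under TMM, 0 and 10 with DESeq2, 3 and 4 with limma-voom. The TMM figures carry the limit given above.

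The labels number the replicates in both groups. Deviations of same-numbered zaxinone and mock libraries correlated at -0.106, 0.020, 0.021 and -0.115, and no library correlated best with its own number, so the numbers were not taken as pairs. With the replicate number as a block, edgeR called 152 lower genes absent from the Col-0 table and 74 lower genes in kai2 alone, 10 effects differing from d14 and 13 from max2, and LHY, AT1G14550, AT4G04750, AT4G16233 and AT5G38010 had adjusted p-values over 0.05. The block fit put AT5G43066, CCD7, FRO2, CCA1, LDOX and RBCS2B under 0.05 (0.00212 to 0.0498). Causes of these shifts were not tested.

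Genes outside the deposited tables have no value here, so absence from the Col-0 table is not a measured lack of response.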
